A study of Rattus norvegicus with 18 samples.

Results

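The genes described here encode machinery that sorts cargo on endosomes, the compartments that receive material taken up at the cell surface. They were chosen by symbol. The set took every VPS (vacuolar protein sorting), sorting nexin (Snx) and CHMP gene, the 3 genes of the PIKfyve lipid kinase complex (Pikfyve, Fig4 and Vac14) and 5 named factors of the ESCRT pathway (Hgs, Stam, Stam2, Tsg101 and Pdcd6ip), each with a sum of at least 50 counts over the 18 libraries. Of 28695 gene rows, 80 had such a symbol and 78 reached the minimum: 33 Vps, 28 Snx, 9 Chmp and 8 other symbols. The rule held no measured difference between groups, but the members were chosen with earlier results of these data known. Snx22 and Snx31 fell under the minimum. Chmp4b, Chmp1b, Vps51 and Vps13b were not analysed here.

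RNA was sequenced from 18 cultures of pXEN cells, a rat line that the labels call XENP, derived from blastocysts of the WKY strain and labelled female. Such cells resemble extraembryonic endoderm, the lineage that lines the yolk sac. No gene was altered in any group, and each of the 6 groups had 3 libraries. Normal cells were kept in routine culture at passages 37, 40 and 51. Cells with vacuoles were obtained in 3 ways: in routine culture with the GSK3 inhibitor CHIR99021 at 0.5 µM (passages 37, 41 and 51), in the same way with a sort added (passages 35, 38 and 49), and with 14% BCS, a supplement not spelled out in the labels (passages 41, 32 and 42). The marker or gate of the sort is not given. Vesicles were grown with CHIR99021 in serum (passages 32, 35 and 49) or without it (passages 32, 35 and 42). The protocol names N2B27 medium with 3 µM CHIR99021 and 10 ng/ml murine LIF for vesicles, in words that fit the serum-free culture, and the dose used in serum is not clear. Samples were prepared independently, per the labels, but all came from 1 line, and whether replicates were separate derivations is not stated. The p-values therefore measure the spread between these samples, which may in part be technical.

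Endosomal membranes carry 2 opposing sorting systems. Retromer and its sorting nexin partners collect receptors into tubules that return to the Golgi or the cell surface, whereas the ESCRT complexes capture ubiquitinated receptors and bud them into the lumen for degradation. Fusion with the lysosome needs the HOPS tether, and the PIKfyve complex makes a phosphoinositide without which endosomes swell into large vacuoles. Extraembryonic endoderm is an absorptive tissue known for a prominent endocytic and lysosomal apparatus.

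Libraries held 4.05 M to 12.1 M strand-specific counts. Between 37.6 and 61.1% of these fell on a pair of genes that the files list by an identifier in place of a symbol. All other genes together had 1.92 M counts in serum-vesicle replicate 3, the lowest, and up to 6.54 M elsewhere. The 78 genes took 0.525 to 0.606% of those other counts. Mitochondrially encoded genes took 3.13 to 3.38% in normal cells, against 2.88 to 4.32% in the unsorted vacuolated groups, 6.76 to 8.91% after the sort and 7.11 to 9.43% across vesicles of both media. The labelled cell type was checked in normal cells, where all 9 extraembryonic endoderm markers had counts, among them Gata4 (376 to 462 CPM, counts scaled to a common library size) and Sox17 (446 to 607 CPM). The summed level of that list lay between 2408 and 2522 CPM in normal cells, whereas vesicles had 1382 to 1518 CPM with serum and 1695 to 1864 without. Its members did not move alike: means of Gata4, Sox17, Gata6, Dab2 and Lamb1 were lower in vesicles, while Hnf4a (8.39 CPM in normal cells, 40.9 and 64.1 in vesicles), Foxa2 (24.3, 47.0 and 44.6) and Pdgfra (197, 244 and 293) were higher. The trophoblast list of 8 markers summed to 7.87 to 10.1 CPM in normal cells, and vesicles had 22.1 to 32.4 CPM with serum and 19.2 to 28.2 without. Cdx2 made up most of it there (means 25.0 and 22.2 CPM), and Hand1, Prl3d1 and Gcm1 had 0 counts in vesicles of both media. Eomes, which made up most of the list in normal cells, went the other way (means 8.25 CPM there, 0.854 and 0.969 in vesicles). Tfap2c was lower in vesicles as well (0.743 in normal cells, 0 and 0.159 in vesicles). Fibroblast markers summed to 1.58 to 17.1 CPM and blood markers to 0.461 to 5.83 CPM over all libraries. The epiblast list summed to 130 to 165 CPM in normal cells and 44.7 to 88.8 CPM across the vesicles. Within it the mean of Pou5f1 was 118 CPM in normal cells and 1.25 and 0.746 in vesicles, and that of Klf4 was 31.4 in normal cells and 75.7 and 58.6 in vesicles. The part of these shares and markers in the results on vesicles and sorted cells was not tested.

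The promoter windows of these genes are shown first, because an E-box (CACGTG) with a T before it recurs in them. TCACGTG belongs to the element through which TFEB and its relatives are known to bind lysosomal genes. RefSeq windows (assembly GRCr8, 250 bases before to 50 after each start, while the counts were made on rn6) were matched by symbol for 64 of the 78 genes. The motif TCACGTG, read on both strands, lay in 13 of the 64 windows (20.3%), against 5.69% of the 8520 windows of all tested genes, 3.68% of protein-coding windows and 3.2% of all 33469 windows. The core CACGTG, found within every TCACGTG, lay in 14 windows (21.9%), against 9.68%, 7.02% and 6.42%. The 110 bases before the start of 6 of them follow, in lower case with each CACGTG in capitals: 3 subunits of the tethering core, 1 retromer subunit, the PIKfyve scaffold Vac14 and the ESCRT adaptor Pdcd6ip.
Vps11 (chr8:53595378-53595487, minus strand): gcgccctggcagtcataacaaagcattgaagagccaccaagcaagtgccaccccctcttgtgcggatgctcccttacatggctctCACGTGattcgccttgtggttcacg
Vps33a (chr12:38685414-38685523, plus strand): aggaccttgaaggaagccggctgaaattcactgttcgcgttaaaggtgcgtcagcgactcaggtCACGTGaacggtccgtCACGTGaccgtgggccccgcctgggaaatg
Vps16 (chr3:138075600-138075709, plus strand): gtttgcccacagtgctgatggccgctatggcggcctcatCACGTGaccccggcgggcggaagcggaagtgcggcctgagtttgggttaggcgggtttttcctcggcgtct
Vps26a (chr20:30976890-30976999, minus strand): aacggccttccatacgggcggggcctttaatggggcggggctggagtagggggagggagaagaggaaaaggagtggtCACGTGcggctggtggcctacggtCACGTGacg
Vac14 (chr19:55499852-55499961, plus strand): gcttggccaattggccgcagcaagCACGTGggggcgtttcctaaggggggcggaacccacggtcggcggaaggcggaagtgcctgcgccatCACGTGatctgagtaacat
Pdcd6ip (chr8:122524994-122525103, minus strand): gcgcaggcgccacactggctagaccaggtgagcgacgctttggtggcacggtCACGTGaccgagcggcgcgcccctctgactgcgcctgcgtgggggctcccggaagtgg
The other windows with TCACGTG belonged to Pikfyve, Snx2, Snx8, Vps26c, Vps37b, Vps50 and Vps8, and that of Snx18 held CACGTG alone. These genes did not move together. Of the 13 with TCACGTG, 2 were higher and 5 lower in serum vesicles than in normal cells (median log2 fold change -0.11), and of the 50 tested genes with a window but without it, 19 were higher and 14 lower (median 0.08). In serum-free vesicles these were 2 higher and 6 lower, and 19 higher and 14 lower. Among all tested genes 31.7% were higher and 28.8% lower with serum, and 30.2% and 27.5% without. A difference between genes with and without the motif was not tested. A match describes the letters of a window and says nothing of binding.

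Against normal cells, vesicles differed in most of the set and cells with vacuoles in less. Differences were tested with edgeR's quasi-likelihood test over 11503 genes. The p-values were adjusted by Benjamini and Hochberg's method, and 0.05 was the threshold. Of the 78 genes 76 had enough counts to be tested. In CHIR99021-vacuolated cells 3 of them passed (0 higher, 3 lower), which is 3.95% of those tested, beside 7.62% of all tested genes (4.49% higher, 3.13% lower). At an unadjusted p under 0.05 there were 11 of the 76, beside 2373 of all 11503 tested genes. DESeq2 called 4, all lower, beside 1081 of all genes. BCS-vacuolated cells gave 17 (11 higher, 6 lower), or 22.4%, beside 20.7% of all (11.2% higher, 9.51% lower). Sorted vacuolated cells gave 20 (10 higher, 10 lower), or 26.3%, beside 25.9% of all (14.4% higher, 11.5% lower). In serum vesicles 49 passed (28 higher, 21 lower), or 64.5%, beside 60.4% of all (31.7% higher, 28.8% lower). In serum-free vesicles 47 passed (26 higher, 21 lower), or 61.8%, beside 57.7% of all (30.2% higher, 27.5% lower). The share called among these genes lay close to that among all genes in each comparison but the first, where it was lower, and their median log2 fold change stayed between -0.11 and 0.11. What can be described is which subunits moved in which direction. The 5 comparisons share the same 3 normal libraries. In bulk RNA, fewer cells of a type and less RNA per cell cannot be told apart.

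Calls were repeated under 13 alternative settings per comparison, 7 that change the processing and 6 that leave out 1 library. None of the 3 calls in CHIR99021-vacuolated cells passed in all 13, nor did 10 of the 17 with BCS and 12 of the 20 after the sort. In serum vesicles 30 of 49 calls passed in all 13 settings, and in serum-free vesicles 35 of 47. The share of calls over all genes that did so was not computed. A call named below passed in all of them unless the libraries or settings that end it are given. The count with BCS fell to 10 without normal replicate 1 or 2, to 8 without BCS-vacuolated replicate 1 and to 11 without replicate 3. The sorted count fell to 10 without normal replicate 2, to 13 without normal replicate 3 or sorted replicate 1 or 2, and to 12 without sorted replicate 3. The CHIR99021 count was 0 without normal replicate 2, and 1 without normal replicate 1 or any 1 of the CHIR99021-vacuolated replicates. Calls over all genes fell in the same fits. They went from 2383 to between 1275 and 1664 with BCS and from 2974 to between 1982 and 2471 after the sort. With CHIR99021 they went from 876 to between 504 and 638.

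**Figure D1:**
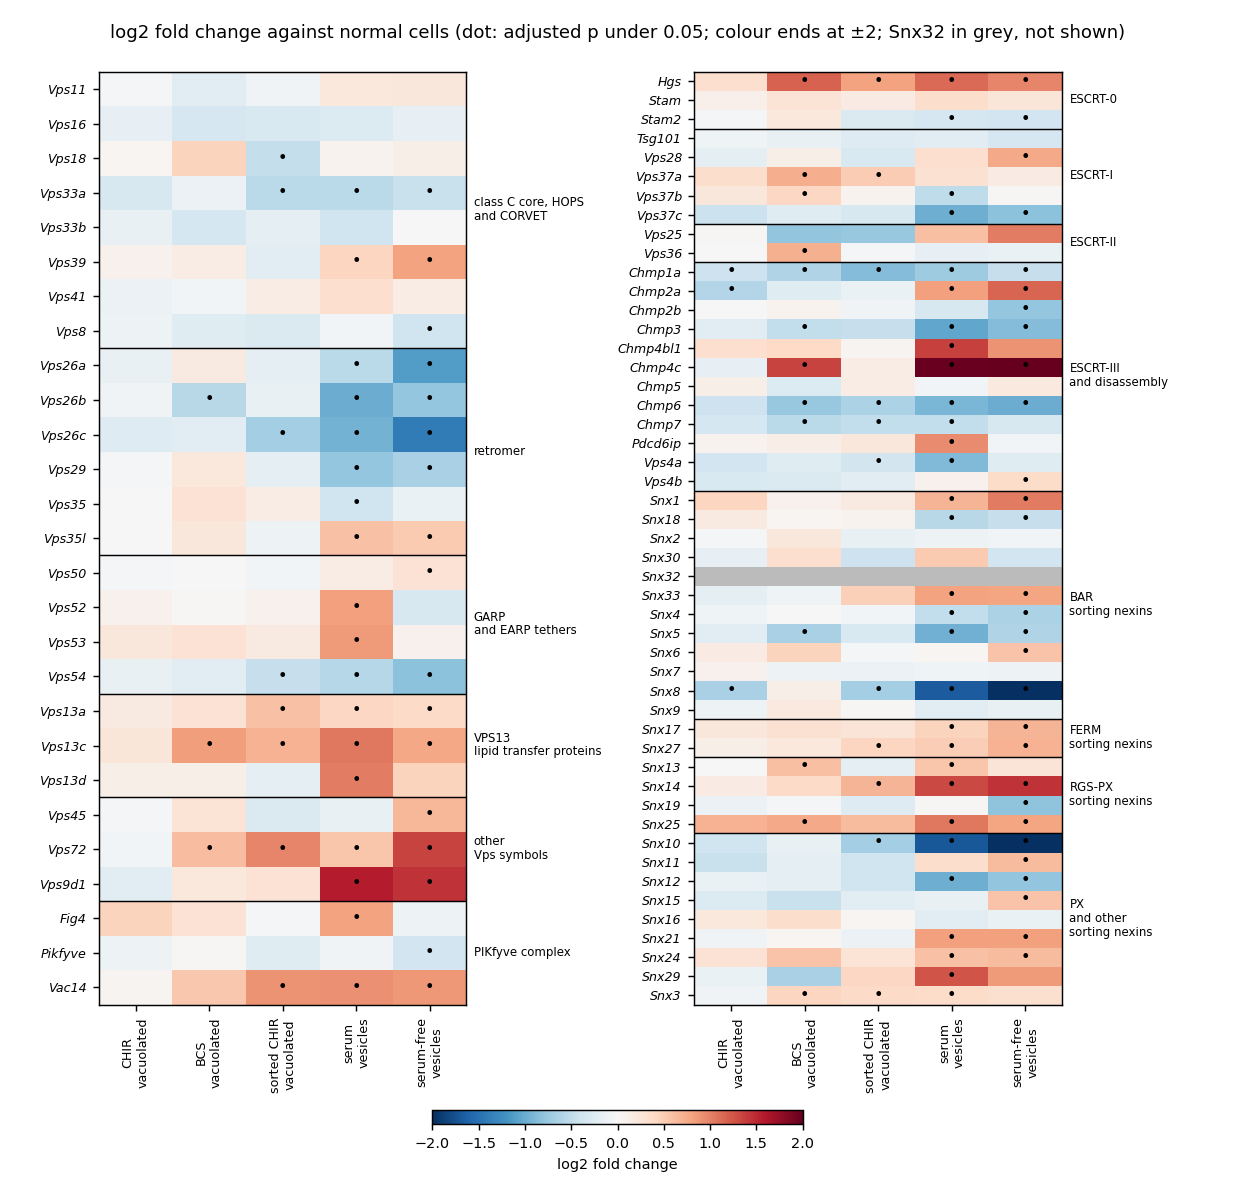
Log2 fold change (edgeR) against normal cells for the tested genes, grouped by role (rows) in the 5 other groups (columns); red is higher, blue is lower, and a dot marks an adjusted p under 0.05. The columns of the vesicles carry 49 and 47 dots and that of CHIR99021-vacuolated cells 3, each counting Snx32 where it passed; Snx32 is in grey because normal cells had 0 counts of it.

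Most retromer and retriever transcripts were lower in vesicles. The core of retromer is a trimer of Vps35, Vps29 and either Vps26a or Vps26b, and the related retriever complex pairs Vps29 with Vps35l and Vps26c. In serum vesicles 5 of the 6 genes fell and Vps35l rose, and in serum-free vesicles 4 fell, Vps35l rose and Vps35 did not pass. That is 100% and 83.3% called, beside 60.4% and 57.7% of all tested genes. The median log2 fold change over the 6 was -0.65 with serum and -0.71 without, beside 0.06 and 0.04 over all tested genes. With vacuoles, 0 of 6 passed in CHIR99021, 1 in BCS and 1 after the sort. Those shares were 0%, 16.7% and 16.7%, beside 7.62%, 20.7% and 25.9% of all tested genes.

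Vps35 had 191.8, 195.3 and 217.8 CPM in normal cells, 203.3, 226.5 and 178.9 in CHIR99021-vacuolated, 229.6, 230.5 and 275.8 in BCS-vacuolated and 245.8, 208.4 and 218.7 in sorted cells. Serum vesicles had 141.5, 180.8 and 134.9 CPM of Vps35 and serum-free vesicles 188.1, 178.1 and 186.1. The serum vesicles lay below every normal library and the BCS libraries above them. The log2 fold change was -0.40 ± 0.13, adjusted p = 0.00840 in serum vesicles, whereas the serum-free vesicles lay just under the normal range (-0.13, adjusted p = 0.384). Normal cells had 67.7, 58.5 and 66.8 CPM of Vps29, cells with vacuoles 60.4, 70.02 and 57.3 under CHIR99021, 73.6, 69.2 and 81.5 under BCS and 62.8, 48.2 and 57.4 after sorting. The vesicles had 33.5, 44.5 and 34.6 CPM of Vps29 with serum and 37.1, 42.6 and 42.98 without it. All 6 vesicle libraries were lower than all 12 others. The change of Vps29 was -0.77 ± 0.14, adjusted p = 4.50e-05 with serum and -0.65 ± 0.14, adjusted p = 0.000310 without.

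For Vps26a, the 3 libraries read 36.8, 36.5 and 38.6 CPM in normal cells, 37.4, 38.3 and 25.97 in CHIR99021, 42.4, 40.9 and 44.1 in BCS and 35.03, 32.6 and 31.5 after the sort. The vesicle libraries read 20.5, 30.1 and 26.7 CPM with serum and 16.01, 20.5 and 15.02 in its absence. Serum-free vesicles were the lowest group, and no vesicle library reached the normal range. The log2 fold change of Vps26a was -1.11 ± 0.17, adjusted p = 4.33e-06 in serum-free vesicles and -0.53 ± 0.17, adjusted p = 0.00773 in serum vesicles, and the second call was lost without serum-vesicle replicate 1 (adjusted p = 0.0627). The normal libraries held 74.7, 78.7 and 72.3 CPM of Vps26b, those with CHIR99021 69.4, 75.4 and 69.3, those with BCS 47.7, 55.7 and 50.6 and the sorted ones 72.1, 65.95 and 66.2. In vesicles Vps26b stood at 34.5, 37.7 and 41.5 CPM with serum and at 38.8, 41.8 and 51.6 without. This paralogue of Vps26a was lower in both kinds of vesicles (-0.99 ± 0.13, adjusted p = 3.37e-07 with serum, -0.77 ± 0.12, adjusted p = 1.21e-05 without) and also in BCS-vacuolated cells (-0.55 ± 0.12, adjusted p = 0.00271), where Vps26a was not called (0.19, adjusted p = 0.445).

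Vps26c was measured at 46.5, 52.8 and 53.7 CPM in the normal libraries, 44.9, 42.8 and 40.9 with CHIR99021, 38.7, 53.7 and 39.1 with BCS and 34.2, 33.1 and 28.6 after the sort. Its values were 27.4, 26.4 and 25.8 CPM in serum vesicles and 20.3, 18.3 and 19.2 in serum-free vesicles. The vesicles, the sorted cells and the CHIR99021-vacuolated cells lay wholly below the normal libraries, and BCS overlapped them. Retriever's Vps26c fell by 1.41 on the log2 scale in serum-free vesicles (SE 0.15, adjusted p = 1.21e-08), and its change was -0.94 ± 0.14, adjusted p = 4.27e-06 in serum vesicles and -0.68 ± 0.14, adjusted p = 0.000874 in sorted cells. Vps35l had 54.4, 46.2 and 53.3 CPM in normal cells, 42.3, 55.2 and 57.8 in CHIR99021-vacuolated, 54.8, 60.9 and 64.9 in BCS-vacuolated and 50.4, 47.7 and 45.8 in sorted cells. Serum vesicles had 77.7, 92.8 and 59.5 CPM of Vps35l and serum-free vesicles 63.3, 76.7 and 81.9. Here the 6 vesicle libraries exceeded all normal ones. Vps35l, the large subunit of retriever, rose by 0.58 ± 0.15, adjusted p = 0.00187 in serum vesicles and by 0.53 ± 0.15, adjusted p = 0.00434 in serum-free vesicles, opposite to its partners Vps29 and Vps26c. The plot of retromer and retriever transcripts shows both directions.

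**Figure D2:**
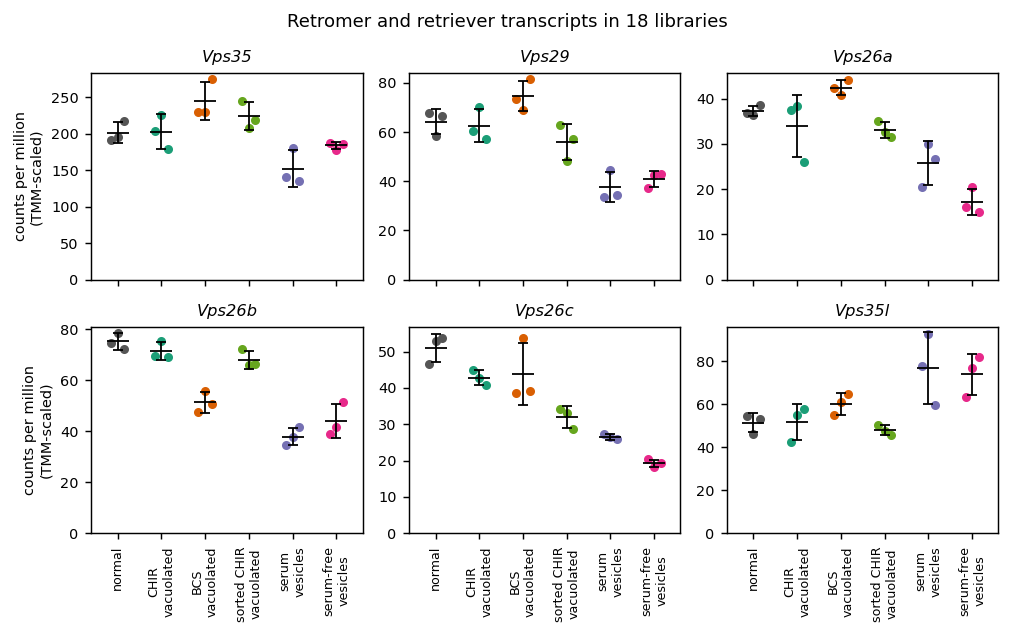
CPM (vertical axes, from 0) of 6 retromer and retriever genes in the 6 groups; points are libraries, horizontal marks the means and bars 1 SD (n = 3 per group). Vps29, Vps26b and Vps26c are lower in both kinds of vesicles, and Vps35l is higher.

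The HOPS and CORVET tethers, which share a core of Vps11, Vps16, Vps18 and Vps33a and join endosomes to lysosomes or to each other, gave few calls. Of the 8 genes grouped with them here, among them Vps33b as a relative of Vps33a, 2 passed in serum vesicles and 3 in serum-free vesicles. After the sort 2 passed, and 0 in either unsorted vacuolated group. The vesicle shares were 25% and 37.5%, beside 60.4% and 57.7% of all tested genes. After the sort it was 25%, beside 25.9%, and with CHIR99021 and BCS 0%, beside 7.62% and 20.7%. Normal cells had 53.3, 52.8 and 52.98 CPM of Vps11, cells with vacuoles 50.9, 48.5 and 54.8 under CHIR99021, 40.2, 56.6 and 38.2 under BCS and 53.1, 52.3 and 45.8 after sorting. The vesicles had 63.9, 70.0 and 49.8 CPM of Vps11 with serum and 57.8, 62.8 and 65.7 without it. Serum-free vesicles lay above the normal libraries, the other groups overlapped them, and no comparison of Vps11 passed (log2 fold change 0.21 and 0.23 in the vesicles). For Vps39, the 3 libraries read 27.3, 37.8 and 32.1 CPM in normal cells, 37.1, 31.9 and 34.2 in CHIR99021, 36.3, 32.9 and 38.9 in BCS and 27.7, 28.6 and 27.7 after the sort. The vesicle libraries read 41.7, 45.4 and 43.3 CPM with serum and 60.1, 58.6 and 51.2 in its absence. Vps39, the HOPS subunit that contacts Rab7, was higher in all 6 vesicle libraries than in the other 12, by 0.81 ± 0.14, adjusted p = 1.68e-05 without serum against normal cells. Its change in serum vesicles was 0.43 ± 0.14, adjusted p = 0.00953, a call lost without normal replicate 1, or with no filter on low counts (adjusted p from 0.0558 to 0.0833).

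Vps33a, the core subunit that binds SNARE proteins, had means of 18.4 ± 3.59 CPM in normal and 12.7 ± 0.232 in sorted cells (SD, n = 3), and 12.7 ± 1.09 and 13.6 ± 2.26 in the vesicles. Its 3 calls were all lower, with log2 fold changes of -0.53 ± 0.19, adjusted p = 0.0372 after the sort, -0.54 ± 0.19, adjusted p = 0.0193 with serum and -0.45 ± 0.19, adjusted p = 0.0483 without, and none held throughout. They were lost without normal replicate 1 or 2 or sorted replicate 1, 2 or 3, or with no filter on low counts (adjusted p from 0.0681 to 0.219) for the sort, without normal replicate 1 or serum-vesicle replicate 1 (adjusted p from 0.0737 to 0.126) with serum, and without normal replicate 1 or 2 or serum-free-vesicle replicate 2 or 3, or with no filter on low counts, with the 2 groups fitted alone or with the replicate number as a block (adjusted p from 0.0599 to 0.260) without serum. Vps18 was lower in sorted cells (-0.48 ± 0.17, adjusted p = 0.0336), a call lost without normal replicate 2 or 3 or sorted replicate 1 or 2, or with no filter on low counts (adjusted p from 0.0556 to 0.157). Vps8, a subunit of CORVET alone, was lower in serum-free vesicles (-0.40 ± 0.14, adjusted p = 0.0156), which was lost without serum-free-vesicle replicate 1, or with no filter on low counts (adjusted p from 0.0567 to 0.0743). Vps16, Vps33b and Vps41 passed in no comparison with normal cells.

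The Golgi-side tethers GARP and EARP share Vps52 and Vps53 and differ in Vps54 (GARP) and Vps50 (EARP). Vps54 had 39.5, 37.03 and 39.96 CPM in normal cells, 20.7, 25.3 and 33.2 in serum vesicles and 22.8, 22.3 and 21.2 in serum-free vesicles. The 6 vesicle libraries lay below the normal ones, with changes of -0.57 ± 0.16, adjusted p = 0.00297 and -0.81 ± 0.16, adjusted p = 9.05e-05. Vps54 was also lower after the sort (-0.46 ± 0.15, adjusted p = 0.0277), lost without normal replicate 1 or 3 or sorted replicate 1 or 3, or with no filter on low counts (adjusted p from 0.0727 to 0.0965). Vps53 rose in serum vesicles (0.84 ± 0.26, adjusted p = 0.00660), a call lost without normal replicate 2 (adjusted p = 0.0586), and its serum-free value was 0.08 (adjusted p = 0.805). Vps52 had 10.9, 10.02 and 24.4 CPM in serum vesicles against 9.87, 5.57 and 9.38 in normal cells, and replicate 3 was the high one. That call (0.83 ± 0.31, adjusted p = 0.0256) was lost without normal replicate 2 or serum-vesicle replicate 3, or with the 2 groups fitted alone (adjusted p from 0.0680 to 0.349). Vps50 passed in serum-free vesicles (0.29 ± 0.12, adjusted p = 0.0403) and lost the call without normal replicate 1, 2 or 3 or serum-free-vesicle replicate 2 or 3, or with no filter on low counts, with the replicate number as a block or with passage as a covariate (adjusted p from 0.0508 to 0.136).

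VPS13 proteins, long bridges that move lipid between membranes in contact, were higher wherever they were called. All 3 genes passed in serum vesicles, 2 in serum-free vesicles, 2 after the sort and 1 with BCS. These shares of 100%, 66.7%, 66.7% and 33.3% rest on 3 genes, beside 60.4%, 57.7%, 25.9% and 20.7% of all tested genes. The normal libraries held 29.4, 22.4 and 28 CPM of Vps13c, those with CHIR99021 34.4, 28.5 and 31.7, those with BCS 50.03, 43.4 and 49.9 and the sorted ones 41.1, 46.95 and 41.3. In vesicles Vps13c stood at 61.6, 46.3 and 58.8 CPM with serum and at 51.8, 47.7 and 37.04 without. Vps13c, known for contacts of the endoplasmic reticulum with late endosomes, exceeded every normal library in the BCS, sorted and vesicle groups. Its log2 fold changes were 0.84 ± 0.15, adjusted p = 0.000423 with BCS, 0.69 ± 0.15, adjusted p = 0.00165 after the sort, 1.06 ± 0.15, adjusted p = 2.36e-06 in serum vesicles and 0.77 ± 0.15, adjusted p = 0.000161 in serum-free vesicles, beside 0.24 (adjusted p = 0.414) with CHIR99021 alone. Vps13a rose by 0.58 ± 0.14, adjusted p = 0.00351 after the sort. It was also higher in serum vesicles (0.41 ± 0.14, adjusted p = 0.0166, lost without normal replicate 1 or serum-vesicle replicate 2, adjusted p from 0.0932 to 0.150) and serum-free vesicles (0.39 ± 0.14, adjusted p = 0.0231, lost without normal replicate 1 or serum-free-vesicle replicate 1 or 2, or with passage as a covariate, adjusted p from 0.0590 to 0.182). Vps13d, which acts at mitochondria and peroxisomes, had a mean of 44.2 ± 8.91 CPM (SD, n = 3) in serum vesicles and 21.4 ± 9.05 in normal cells, whose replicate 2 was low at 10.9 CPM (1.03 ± 0.27, adjusted p = 0.00251).

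Among other genes with a Vps symbol, Vps72 is a chromatin protein of the SRCAP and TIP60 complexes that shares only the name. Vps72 was measured at 8.08, 6.72 and 6.81 CPM in the normal libraries, 6.59, 6.90 and 7.38 with CHIR99021, 10.01, 13.2 and 9.84 with BCS and 13.8, 14.1 and 14.7 after the sort. Its values were 11.3, 9.60 and 11.1 CPM in serum vesicles and 18.6, 19.6 and 16.9 in serum-free vesicles. BCS cells, sorted cells and both kinds of vesicles lay above all normal libraries, with changes of 0.98 ± 0.19, adjusted p = 0.000448 after the sort and 1.35 ± 0.19, adjusted p = 1.39e-06 in serum-free vesicles. The calls with BCS (0.62 ± 0.19, adjusted p = 0.0237) and in serum vesicles (0.56 ± 0.20, adjusted p = 0.0170) were lost without normal replicate 2 or 3 or BCS-vacuolated replicate 2, or with no filter on low counts (adjusted p from 0.0720 to 0.116) and without normal replicate 2 or 3 or serum-vesicle replicate 1, or with no filter on low counts or with the 2 groups fitted alone (adjusted p from 0.0556 to 0.0947), respectively. Vps45, a partner of SNARE proteins on early endosomes, rose in serum-free vesicles (0.66 ± 0.20, adjusted p = 0.00645), and its serum value was -0.14 (adjusted p = 0.566). Vps9d1 rose in vesicles with serum (1.58 ± 0.37, adjusted p = 0.000774) and without (1.44 ± 0.37, adjusted p = 0.00171) from 34 counts over the normal libraries.

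The 3 genes of the PIKfyve complex moved in different ways. PIKfyve phosphorylates the endosomal lipid PI3P, Vac14 is the scaffold that holds the complex together, and Fig4 is its phosphatase. Pikfyve had 119.5, 121.3 and 106.3 CPM in normal cells, 105.4, 111.6 and 106.7 in CHIR99021-vacuolated, 113.5, 118.6 and 119.3 in BCS-vacuolated and 101.2, 97.6 and 95.1 in sorted cells. Serum vesicles had 109.1, 109.9 and 112.7 CPM of Pikfyve and serum-free vesicles 80.8, 97.2 and 86.9. Every serum-free library and every sorted one lay below the normal ones. The serum-free change was -0.39 ± 0.11, adjusted p = 0.00317, and after the sort it was -0.24 (adjusted p = 0.0973). With serum the change was -0.07 (adjusted p = 0.618), and none of the vacuolated groups passed.

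Normal cells had 19.02, 10.9 and 17.6 CPM of Vac14, cells with vacuoles 15.3, 12.8 and 21.1 under CHIR99021, 24.8, 27.3 and 17.5 under BCS and 23.5, 35.3 and 30.5 after sorting. The vesicles had 32.4, 22.7 and 35.04 CPM of Vac14 with serum and 29.2, 32.4 and 25.9 without it. Sorted cells and vesicles all exceeded the normal libraries, and BCS overlapped them. Vac14 rose by 0.91 ± 0.23, adjusted p = 0.00459 after the sort, 0.91 ± 0.23, adjusted p = 0.00159 in serum vesicles and 0.87 ± 0.23, adjusted p = 0.00220 in serum-free vesicles, with 0.54 (adjusted p = 0.0971) in BCS. For Fig4, the 3 libraries read 2.87, 2.88 and 4.995 CPM in normal cells, 4.21, 5.69 and 4.92 in CHIR99021, 5.43, 4.07 and 3.88 in BCS and 4.03, 4.47 and 2.37 after the sort. The vesicle libraries read 6.39, 5.98 and 6.68 CPM with serum and 3.20, 4.01 and 2.91 in its absence. Serum vesicles lay above the normal libraries and the other groups overlapped them, for a change of 0.80 ± 0.31, adjusted p = 0.0291 in serum vesicles. That call on Fig4 was lost without normal replicate 1 or 2 or serum-vesicle replicate 1 or 3, or with no filter on low counts or with the 2 groups fitted alone (adjusted p from 0.0592 to 0.115).

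ESCRT-0, which binds ubiquitinated cargo first, consists of Hgs with Stam or Stam2, and Hgs was the member that rose. The normal libraries held 12.7, 14.6 and 14.4 CPM of Hgs, those with CHIR99021 15.6, 15.2 and 21.7, those with BCS 29.2, 40.2 and 24.99 and the sorted ones 23.9, 28.3 and 21.1. In vesicles Hgs stood at 33.01, 24.6 and 34.8 CPM with serum and at 23.7, 36.2 and 22.01 without. Each BCS, sorted and vesicle library exceeded the highest normal one. The log2 fold change of Hgs was 1.18 ± 0.22, adjusted p = 0.000421 with BCS, 0.81 ± 0.22, adjusted p = 0.00739 after the sort, 1.14 ± 0.22, adjusted p = 8.62e-05 in serum vesicles and 0.98 ± 0.22, adjusted p = 0.000476 in serum-free vesicles. With CHIR99021 alone all 3 libraries also exceeded the normal range, but the difference did not pass (0.34, adjusted p = 0.431). Reads of the opposite strand made up 10.3% of those at Hgs. The unstranded column leaves out nearly all of them (3225 counts, beside 3216 on the strand used), so it gives no check of the calls on Hgs. Stam passed in no comparison (log2 fold change 0.35 and 0.24 in vesicles). Stam2 was lower in serum vesicles (-0.33 ± 0.14, adjusted p = 0.0373) and serum-free vesicles (-0.39 ± 0.14, adjusted p = 0.0159), lost without normal replicate 2 or serum-vesicle replicate 1 or 3, or with no filter on low counts or with the 2 groups fitted alone (adjusted p from 0.0541 to 0.147) and without normal replicate 2 or serum-free-vesicle replicate 3, or with no filter on low counts (adjusted p from 0.0508 to 0.0880).

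ESCRT-I bridges ESCRT-0 to the later complexes. Tsg101 was measured at 17.4, 23.4 and 21.04 CPM in the normal libraries, 18.8, 20.4 and 19.3 with CHIR99021, 17.98, 17.7 and 19.8 with BCS and 19.5, 17.2 and 15.4 after the sort. Its values were 17.8, 15.03 and 20.5 CPM in serum vesicles and 13.9, 18.4 and 16.5 in serum-free vesicles. Tsg101, its ubiquitin-binding subunit, overlapped with normal cells in every group and passed nowhere (-0.22 and -0.33 in vesicles). The interchangeable VPS37 subunits differed from one another. Vps37c had 45.1 ± 2.29 CPM (SD, n = 3) in normal cells, 22.6 ± 6.69 in serum vesicles and 25.6 ± 4.75 in serum-free vesicles, changes of -0.97 ± 0.19, adjusted p = 0.000125 and -0.81 ± 0.19, adjusted p = 0.000763. Vps37a rose with BCS (0.72 ± 0.18, adjusted p = 0.00592), where replicate 2 stayed within the normal range at 35.8 CPM, and after the sort (0.51 ± 0.18, adjusted p = 0.0373), lost without normal replicate 1 or 2 or sorted replicate 1, 2 or 3 (adjusted p from 0.0532 to 0.146). Vps37b was lower in serum vesicles (-0.50 ± 0.13, adjusted p = 0.00169) and higher with BCS (0.41 ± 0.12, adjusted p = 0.0211), the second lost without normal replicate 1 or 3 or BCS-vacuolated replicate 1 or 3, or with no filter on low counts (adjusted p from 0.0554 to 0.134). Vps28 rose in serum-free vesicles (0.76 ± 0.16, adjusted p = 0.000207).

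Of ESCRT-II, Vps36 was higher with BCS (0.71 ± 0.19, adjusted p = 0.0105). Its BCS libraries had 36.6, 21.03 and 36.8 CPM against 17.2, 18.8 and 21.3 in normal cells, replicate 2 was within the normal range, and the call was lost without normal replicate 1 or BCS-vacuolated replicate 1 or 3 (adjusted p from 0.0540 to 0.0705). Vps25 passed in no comparison and had between 27 and 93 counts per group.

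ESCRT-III, the filament that cuts the neck of the bud, split by subunit. In serum vesicles 4 of the 12 genes of ESCRT-III and its disassembly rose and 5 fell, and in serum-free vesicles 3 rose and 4 fell. The shares called were 75% and 58.3%, beside 60.4% and 57.7% of all tested genes. With BCS 1 rose and 4 fell, after the sort 0 rose and 4 fell, and with CHIR99021 0 rose and 2 fell. Those shares were 41.7%, 33.3% and 16.7%, beside 20.7%, 25.9% and 7.62% of all tested genes. Chmp1a, a regulatory subunit that binds the VPS4 ATPase, was called in all 5 comparisons with normal cells. Chmp1a had 97.1, 105.3 and 105.3 CPM in normal cells, 74.02, 70.02 and 87.6 in CHIR99021-vacuolated, 62.6, 79.3 and 60.7 in BCS-vacuolated and 57.4, 54.1 and 56.4 in sorted cells. Serum vesicles had 59.5, 72.8 and 55.1 CPM of Chmp1a and serum-free vesicles 76.3, 72.8 and 74.3. No library of any other group reached the lowest normal library. The log2 fold change of Chmp1a was -0.87 ± 0.13, adjusted p = 2.24e-05 after the sort, -0.71 ± 0.13, adjusted p = 4.42e-05 with serum, -0.60 ± 0.13, adjusted p = 0.00168 with BCS and -0.46 ± 0.13, adjusted p = 0.00338 without serum. In CHIR99021-vacuolated cells it was -0.41 ± 0.13, adjusted p = 0.0499, lost without normal replicate 1, 2 or 3 or CHIR99021-vacuolated replicate 1 or 2, or with no filter on low counts, with unstranded counts, with the replicate number as a block or with passage as a covariate (adjusted p from 0.0530 to 0.203).

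Normal cells had 27.3, 30.3 and 31.5 CPM of Chmp6, cells with vacuoles 18.4, 23.5 and 24.9 under CHIR99021, 16.8, 20.3 and 15.3 under BCS and 16.4, 19.3 and 21.6 after sorting. The vesicles had 17.04, 14.8 and 15.7 CPM of Chmp6 with serum and 14.7, 13.96 and 15.96 without it. Chmp6, which nucleates the filament on ESCRT-II, lay below the normal libraries in all 5 other groups. Its changes were -0.76 ± 0.17, adjusted p = 0.00188 with BCS, -0.63 ± 0.16, adjusted p = 0.00540 after the sort, -0.91 ± 0.17, adjusted p = 5.83e-05 in serum vesicles and -0.997 ± 0.17, adjusted p = 1.78e-05 in serum-free vesicles, and -0.42 (adjusted p = 0.125) with CHIR99021. For Chmp3, the 3 libraries read 40.7, 33.8 and 37.1 CPM in normal cells, 32.1, 32.6 and 31.6 in CHIR99021, 21.9, 29.3 and 27.4 in BCS and 30.4, 23.5 and 27.4 after the sort. The vesicle libraries read 22.8, 18.6 and 11.99 CPM with serum and 19.6, 18.7 and 22.7 in its absence. Every other group of Chmp3, which caps the filament together with Chmp2a, also lay below the normal libraries. It fell in vesicles with serum (-1.04 ± 0.18, adjusted p = 2.54e-05) and without (-0.87 ± 0.18, adjusted p = 0.000189). With BCS its change was -0.50 ± 0.17, adjusted p = 0.0432, lost without normal replicate 1, 2 or 3 or BCS-vacuolated replicate 1 or 3, or with no filter on low counts, with unstranded counts or with the replicate number as a block (adjusted p from 0.0514 to 0.201). Chmp7, which also acts at the nuclear envelope, was lower with BCS (-0.54 ± 0.17, adjusted p = 0.0235), after the sort (-0.50 ± 0.16, adjusted p = 0.0269) and in serum vesicles (-0.49 ± 0.17, adjusted p = 0.0142). Those 3 calls were lost without normal replicate 2 or BCS-vacuolated replicate 1 or 3 (adjusted p from 0.0722 to 0.157), without normal replicate 2 or sorted replicate 2 or 3 (adjusted p from 0.0853 to 0.148) and without normal replicate 2 or serum-vesicle replicate 3 (adjusted p from 0.0729 to 0.0912), in that order. Chmp2b, the relative of Chmp2a, fell in serum-free vesicles (-0.77 ± 0.21, adjusted p = 0.00395).

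The subunits that rose in vesicles were Chmp2a, Chmp4c and Chmp4bl1. The normal libraries held 22.97, 19.6 and 17.6 CPM of Chmp2a, those with CHIR99021 14.6, 13.1 and 12.3, those with BCS 15.3, 19.2 and 16.3 and the sorted ones 20.5, 16.4 and 17.99. In vesicles Chmp2a stood at 39.2, 38.5 and 27.4 CPM with serum and at 42.9, 48.7 and 43.3 without. Vesicles of both media lay above all other libraries, for rises of 0.82 ± 0.17, adjusted p = 0.000147 and 1.17 ± 0.16, adjusted p = 1.35e-06, while CHIR99021-vacuolated cells lay below the normal ones (-0.58 ± 0.17, adjusted p = 0.0366), a call lost without normal replicate 1 or 2 or CHIR99021-vacuolated replicate 1, 2 or 3, or with no filter on low counts or with unstranded counts (adjusted p from 0.0597 to 0.179). Chmp4c was measured at 1.61, 1.34 and 1.82 CPM in the normal libraries, 1.82, 1.55 and 0.957 with CHIR99021, 4.24, 2.86 and 5.31 with BCS and 2.42, 1.68 and 1.34 after the sort. Its values were 4.87, 9.74 and 4.15 CPM in serum vesicles and 9.23, 14.9 and 10.4 in serum-free vesicles. Levels of this filament subunit, known for delaying the last step of cell division, were low outside vesicles, with 28 counts in the normal group, 92 with BCS and 261 in serum-free vesicles. Chmp4c rose by 1.98 ± 0.40, adjusted p = 0.000127 in serum vesicles, 2.84 ± 0.38, adjusted p = 7.08e-07 in serum-free vesicles and 1.35 ± 0.40, adjusted p = 0.0193 with BCS, the last lost without normal replicate 1 or 2 or BCS-vacuolated replicate 1 or 3 (adjusted p from 0.0531 to 0.0952). Chmp4bl1 rose in serum vesicles (1.37 ± 0.41, adjusted p = 0.00587), and its serum-free value was 0.90 (adjusted p = 0.0665). Reads from a near-identical copy such as Chmp4b could be split in counting, so this value is uncertain.

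VPS4, the ATPase that takes the filament apart, has 2 paralogues that differed. Vps4a had 75.7, 84.05 and 75.4 CPM in normal cells, 61.1, 56.9 and 61.9 in CHIR99021-vacuolated, 67.7, 63.5 and 68.6 in BCS-vacuolated and 61.8, 62.5 and 58.1 in sorted cells. Serum vesicles had 42.5, 44.95 and 39.6 CPM of Vps4a and serum-free vesicles 54.6, 68.7 and 74.8. No library of another group reached the normal range. Serum vesicles were the lowest group for Vps4a (-0.88 ± 0.12, adjusted p = 1.26e-06), serum-free vesicles did not pass (-0.24, adjusted p = 0.0890), and sorted cells were lower (-0.37 ± 0.12, adjusted p = 0.0262), lost without normal replicate 1, 2 or 3 or sorted replicate 1, 2 or 3, or with no filter on low counts (adjusted p from 0.05 to 0.125). Normal cells had 63.5, 84.2 and 76.1 CPM of Vps4b, cells with vacuoles 53.4, 68.1 and 60.4 under CHIR99021, 62.8, 57.8 and 62.3 under BCS and 63.8, 56.6 and 71.2 after sorting. The vesicles had 74.7, 83.2 and 79.99 CPM of Vps4b with serum and 91.7, 92.9 and 103.2 without it. Its call against normal cells was a rise in serum-free vesicles (0.36 ± 0.13, adjusted p = 0.0172), lost without normal replicate 1 or serum-free-vesicle replicate 3 (adjusted p from 0.0698 to 0.127). For Pdcd6ip, the 3 libraries read 27.8, 24.6 and 22.6 CPM in normal cells, 26.4, 25.01 and 26.9 in CHIR99021, 34.9, 25.8 and 22.01 in BCS and 25.6, 36.7 and 25.2 after the sort. The vesicle libraries read 47.2, 22.5 and 76.1 CPM with serum and 35.2, 23.7 and 13.98 in its absence. Pdcd6ip (ALIX), an adaptor that recruits ESCRT-III, varied widely between replicates of vesicles. Its rise in serum vesicles (0.94 ± 0.37, adjusted p = 0.0379) rested on replicates 1 and 3 and was lost without normal replicate 1, 2 or 3 or serum-vesicle replicate 1 or 3, or with the 2 groups fitted alone (adjusted p from 0.0606 to 0.231).

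**Figure D3:**
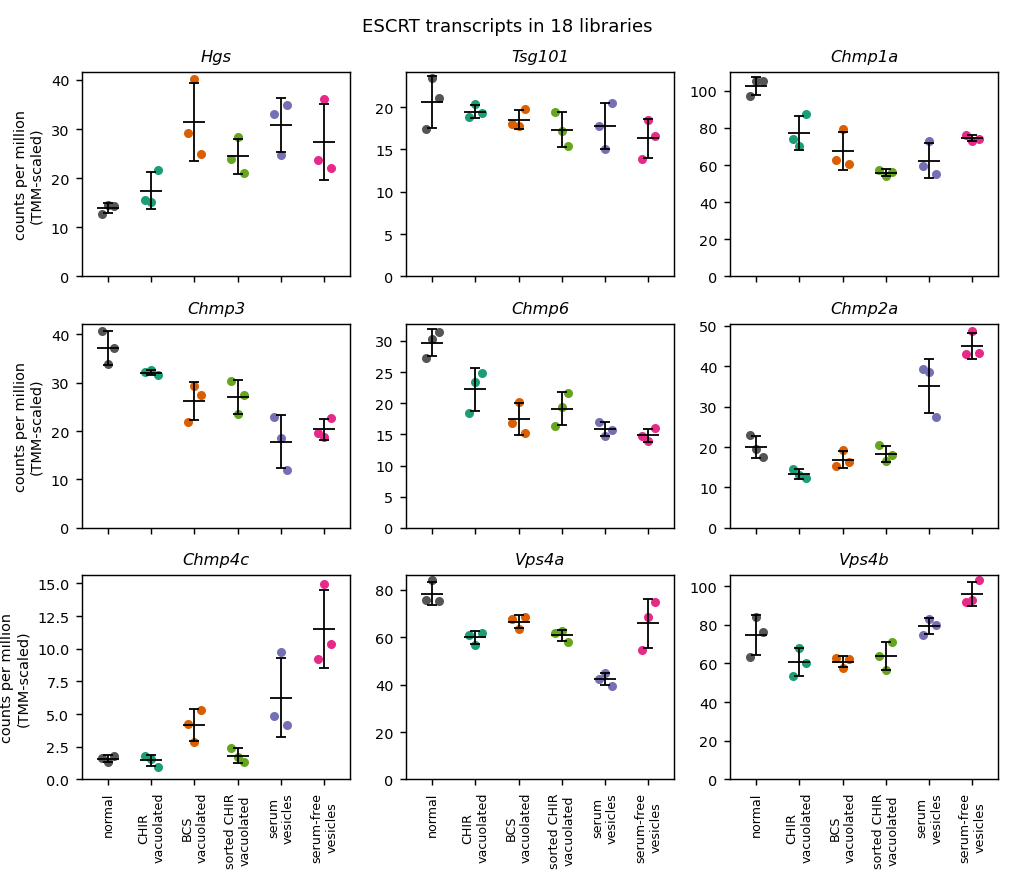
CPM (vertical axes, from 0) of 9 ESCRT genes in the 6 groups; points are libraries, horizontal marks the means and bars 1 SD (n = 3 per group). Hgs is above the normal libraries in all 5 other groups, Chmp1a and Chmp6 are below them in all 5, and Chmp2a and Chmp4c are highest in vesicles.

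Sorting nexins carry a phosphoinositide-binding PX domain, and those with a BAR domain also bend membranes. Of the 12 BAR nexins 3 rose and 4 fell in serum vesicles, and 4 rose and 4 fell in serum-free vesicles. That is 58.3% and 66.7% called, beside 60.4% and 57.7% of all tested genes. There were 2 calls with BCS, 2 after the sort and 1 with CHIR99021. Those shares were 16.7%, 16.7% and 8.33%, beside 20.7%, 25.9% and 7.62% of all. The normal libraries held 29.2, 42.8 and 27.1 CPM of Snx8, those with CHIR99021 18.2, 27.2 and 17.6, those with BCS 35.3, 34.2 and 37.5 and the sorted ones 19.9, 19.4 and 22.5. In vesicles Snx8 stood at 10.3, 11.3 and 9.22 CPM with serum and at 6.59, 7.16 and 8.50 without. Snx8, which acts in traffic from endosomes to the Golgi, was lowest in vesicles, below all 12 other libraries. Its change was -1.67 ± 0.20, adjusted p = 9.76e-08 with serum and -2.14 ± 0.20, adjusted p = 2.46e-09 without. It was also lower in sorted cells (-0.67 ± 0.18, adjusted p = 0.00777, lost without normal replicate 2, adjusted p = 0.0953) and CHIR99021-vacuolated cells (-0.65 ± 0.18, adjusted p = 0.0271, lost without normal replicate 2 or CHIR99021-vacuolated replicate 1 or 3, adjusted p from 0.152 to 0.259), but not with BCS (0.12, adjusted p = 0.696).

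Snx1, Snx2, Snx5 and Snx6 form the heterodimers that draw out retromer-linked tubules, and each heterodimer joins Snx1 or Snx2 to Snx5 or Snx6. Snx1 was measured at 35.7, 26.5 and 35.9 CPM in the normal libraries, 45.98, 40.01 and 46.7 with CHIR99021, 32.6, 37.2 and 34.6 with BCS and 44.8, 34.4 and 32.8 after the sort. Its values were 47.6, 67.6 and 40.6 CPM in serum vesicles and 70.99, 59.5 and 70.7 in serum-free vesicles. Snx1 rose in serum vesicles (0.67 ± 0.17, adjusted p = 0.00156) and serum-free vesicles (1.03 ± 0.17, adjusted p = 1.37e-05), where all libraries exceeded the normal ones. All CHIR99021-vacuolated libraries did so too, without a call, and serum-vesicle replicate 3 lay within their range. Serum vesicles against CHIR99021-vacuolated cells did not pass for Snx1. Snx5 had 153.6, 122.6 and 142.1 CPM in normal cells, 124.2, 132.8 and 104.7 in CHIR99021-vacuolated, 85.5, 94.2 and 88.6 in BCS-vacuolated and 111.1, 105.5 and 122.1 in sorted cells. Serum vesicles had 72.6, 80.02 and 61.3 CPM of Snx5 and serum-free vesicles 93.4, 106.5 and 77.1. Every library of Snx5 in BCS cells, sorted cells and vesicles lay below the normal libraries. The change was -0.64 ± 0.14, adjusted p = 0.00142 with BCS, -0.96 ± 0.14, adjusted p = 1.44e-06 in serum vesicles and -0.60 ± 0.14, adjusted p = 0.000534 in serum-free vesicles. Snx6 rose in serum-free vesicles (0.58 ± 0.16, adjusted p = 0.00434), with 0.04 (adjusted p = 0.849) in serum, and Snx2 passed in no comparison. Of the endocytic nexins, Snx33 rose in vesicles with serum (0.81 ± 0.22, adjusted p = 0.00297) and without (0.79 ± 0.22, adjusted p = 0.00347), Snx18 fell (-0.56 ± 0.15, adjusted p = 0.00214 and -0.46 ± 0.15, adjusted p = 0.0101, the second lost without serum-free-vesicle replicate 1, adjusted p = 0.0849), and Snx9 passed nowhere. Snx4, of the recycling branch, fell without serum (-0.63 ± 0.15, adjusted p = 0.00111) and with it (-0.49 ± 0.15, adjusted p = 0.00783), the second lost without serum-vesicle replicate 3 (adjusted p = 0.0610).

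Both tested FERM nexins, which carry receptors back to the surface, were higher in vesicles. Normal cells had 34.99, 29.9 and 32.4 CPM of Snx27, cells with vacuoles 31.96, 35.4 and 38.3 under CHIR99021, 42.4, 29.4 and 41.2 under BCS and 41.1, 45.4 and 44.02 after sorting. The vesicles had 51.6, 38.96 and 46.8 CPM of Snx27 with serum and 57.99, 56.2 and 43.9 without it. Snx27, the adaptor that hands cargo to retromer, rose in serum-free vesicles (0.70 ± 0.15, adjusted p = 0.000461), in serum vesicles (0.49 ± 0.16, adjusted p = 0.00860, lost without serum-vesicle replicate 1, adjusted p = 0.0587) and after the sort (0.42 ± 0.15, adjusted p = 0.0443, lost without normal replicate 1, 2 or 3 or sorted replicate 1, 2 or 3, or with RLE factors or with no filter on low counts, adjusted p from 0.0502 to 0.154). Snx17, the cargo adaptor of retriever, rose in serum-free vesicles (0.67 ± 0.17, adjusted p = 0.00128) and in serum vesicles (0.44 ± 0.17, adjusted p = 0.0259), the second lost without normal replicate 2 or 3 or serum-vesicle replicate 1, or with no filter on low counts (adjusted p from 0.0566 to 0.115).

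In the RGS-PX family, which tethers the endoplasmic reticulum to other organelles, Snx14 moved furthest in vesicles. For Snx14, the 3 libraries read 13.3, 11.3 and 15.3 CPM in normal cells, 12.3, 16.2 and 16.5 in CHIR99021, 15.6, 16.6 and 19.7 in BCS and 20.6, 19.4 and 24.1 after the sort. The vesicle libraries read 29.1, 30.5 and 41.3 CPM with serum and 30.3, 35.6 and 42.5 in its absence. Its level rose with no overlap in sorted cells (0.68 ± 0.19, adjusted p = 0.00846, lost without normal replicate 2, adjusted p = 0.0578), serum vesicles (1.32 ± 0.19, adjusted p = 1.48e-06) and serum-free vesicles (1.44 ± 0.19, adjusted p = 4.04e-07). Snx25 had means of 8.90 ± 1.07 CPM (SD, n = 3) in normal cells and 18.3 ± 5.18 in serum vesicles (1.05 ± 0.24, adjusted p = 0.000646). Snx25 was also higher in serum-free vesicles (0.79 ± 0.24, adjusted p = 0.00803, lost without serum-free-vesicle replicate 2, adjusted p = 0.0610) and with BCS (0.76 ± 0.24, adjusted p = 0.0283, lost without normal replicate 1, 2 or 3 or BCS-vacuolated replicate 1 or 3, adjusted p from 0.0514 to 0.218). Snx13 rose in serum vesicles (0.55 ± 0.17, adjusted p = 0.00658) and with BCS (0.61 ± 0.17, adjusted p = 0.0115), the second lost without BCS-vacuolated replicate 1 (adjusted p = 0.0932). Snx19 fell in serum-free vesicles (-0.81 ± 0.23, adjusted p = 0.00457).

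Among nexins with little beyond the PX domain, Snx10 fell furthest. Snx10 is known for its link to the proton pump of endosomes and for large vacuoles when overproduced. The normal libraries held 9.87, 13.1 and 14.8 CPM of Snx10, those with CHIR99021 8.97, 9.83 and 9.98, those with BCS 13.2, 10.2 and 10.9 and the sorted ones 7.61, 7.60 and 8.36. In vesicles Snx10 stood at 5.17, 3.62 and 2.54 CPM with serum and at 1.32, 2.06 and 3.03 without. All 6 vesicle libraries lay below the other 12. The change was -1.70 ± 0.27, adjusted p = 6.57e-06 in serum vesicles and -2.50 ± 0.28, adjusted p = 4.64e-08 in serum-free vesicles, and -0.68 ± 0.24, adjusted p = 0.0379 after the sort, lost without normal replicate 2 or 3 or sorted replicate 1, 2 or 3, or with no filter on low counts (adjusted p from 0.07 to 0.180). With CHIR99021 or BCS it was not called (-0.40 and -0.15). Snx12, a relative of the retromer adaptor Snx3, had 98.6 ± 11.1 CPM (SD, n = 3) in normal cells, 50.5 ± 9.88 with serum (-0.97 ± 0.18, adjusted p = 6.47e-05) and 56.4 ± 18.8 without (-0.80 ± 0.18, adjusted p = 0.000514). Snx3 itself was higher in serum vesicles (0.37 ± 0.14, adjusted p = 0.0286), lost without normal replicate 2 or 3 or serum-vesicle replicate 3, or with no filter on low counts (adjusted p from 0.0514 to 0.0950). It was also higher with BCS (0.42 ± 0.14, adjusted p = 0.0364) and after the sort (0.39 ± 0.14, adjusted p = 0.0457), lost without normal replicate 1, 2 or 3 or BCS-vacuolated replicate 1 or 3 (adjusted p from 0.0663 to 0.181) and without normal replicate 1, 2 or 3 or sorted replicate 1 or 3, or with RLE factors, with the replicate number as a block or with passage as a covariate (adjusted p from 0.0521 to 0.218). Rises of Snx11 (0.64) and Snx15 (0.57) in serum-free vesicles, of Snx29 in serum vesicles (1.25) and of Snx24 in both media (0.58 and 0.63) did not hold either. Snx11 was lost without normal replicate 1 or 3 or serum-free-vesicle replicate 2 or 3, or with no filter on low counts or with passage as a covariate (adjusted p from 0.0707 to 0.110), Snx15 without normal replicate 1 or 3 or serum-free-vesicle replicate 2 or 3, or with the 2 groups fitted alone (adjusted p from 0.0562 to 0.261), and Snx29 without normal replicate 3 or serum-vesicle replicate 3, or with the 2 groups fitted alone (adjusted p from 0.0547 to 0.152). Snx24 was lost without normal replicate 1 or 3 or serum-vesicle replicate 1 or 3, or with no filter on low counts, with the 2 groups fitted alone or with passage as a covariate (adjusted p from 0.0659 to 0.155) with serum and without normal replicate 1 or 3 or serum-free-vesicle replicate 1 or 2, or with the 2 groups fitted alone or with passage as a covariate (adjusted p from 0.0503 to 0.181) without.

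**Figure D4:**
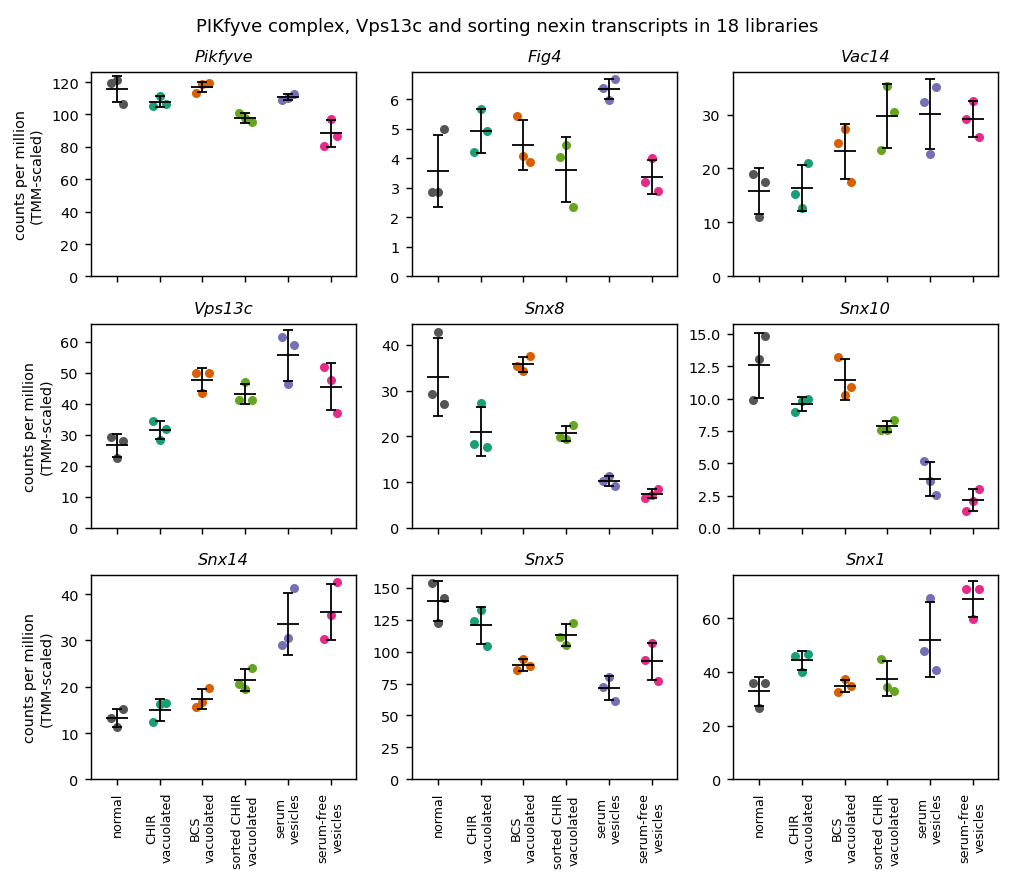
CPM (vertical axes, from 0) of the PIKfyve complex, Vps13c and 5 sorting nexins in the 6 groups; points are libraries, horizontal marks the means and bars 1 SD (n = 3 per group). Vac14 is raised in sorted cells and vesicles, Snx8 and Snx10 are lowest in vesicles, and Snx14 is highest there.

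Several of these genes are close relatives, so the ratio of 1 paralogue to the other within a library was compared between the 6 vesicle libraries and the 12 others. Such a ratio needs no scaling between libraries. The 12 others come from several culture groups whose ratios differ: Snx13 over Snx14 averaged 0.99 with BCS and -0.11 after the sort. The permutation used here takes no account of these groups, so its p-values may be too small. The ratios had 0.1 CPM added to both genes. Over 17 pairs an exact two-sided permutation test of the libraries passed for 11 after Benjamini-Hochberg adjustment over the pairs, and the smallest p it allows is 5.39e-05. The share of other gene pairs that would pass was not computed. Most tested genes differed between vesicles and normal cells (60.4% with serum, 57.7% without), so the count cannot be read as particular to paralogues. The log2 ratio of Snx10 to Snx11 averaged 1.05 ± 0.32 (SD) in the other libraries and -1.56 ± 0.69 in vesicles. That difference of -2.61 was the largest of the 17, all 6 vesicle libraries lay outside the range of the others, and the exact adjusted p was 0.000229. Of the others, 3 more pairs separated completely with the same exact p: Chmp2a over Chmp2b moved by 1.79, Snx18 over Snx33 by -1.36 and Vps4a over Vps4b by -0.76. The ratio of Vps4a to Vps4b was 0.03 ± 0.17 (SD) in the other libraries, -0.90 ± 0.10 in serum vesicles and -0.55 ± 0.17 in serum-free vesicles.

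In the tubule-forming nexins the ratio of Snx1 to Snx2 was 0.76 higher in vesicles (exact adjusted p = 0.00214) and that of Snx5 to Snx6 was lower, at -0.66 (exact adjusted p = 0.0136). The mean of Snx5 over Snx6 was -0.29 with BCS, -0.24 and -0.39 in the vesicles and 0.77 in normal cells, but the BCS libraries spread from -0.66 to 0.13, above every vesicle library at the upper end. The other pairs that passed were Snx3 over Snx12 (0.91), Snx9 over Snx18 (0.40), Snx13 over Snx14 (-0.77), Stam over Stam2 (0.51) and Snx20 over Snx21 (-1.39). The last rests on few counts, since Snx20 had 4 to 34 per group. It was lost without serum-vesicle replicate 3 (exact adjusted p = 0.146) or serum-free-vesicle replicate 1 (0.141) or 2 (0.0785). No difference passed for Vps26a over Vps26b, Vps33a over Vps33b, Vps37a over Vps37b, Vps37b over Vps37c, Snx7 over Snx30 or Vps13a over Vps13c. The last passed without serum-vesicle replicate 2 (0.0465) or serum-free-vesicle replicate 3 (0.0472).

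**Figure D5:**
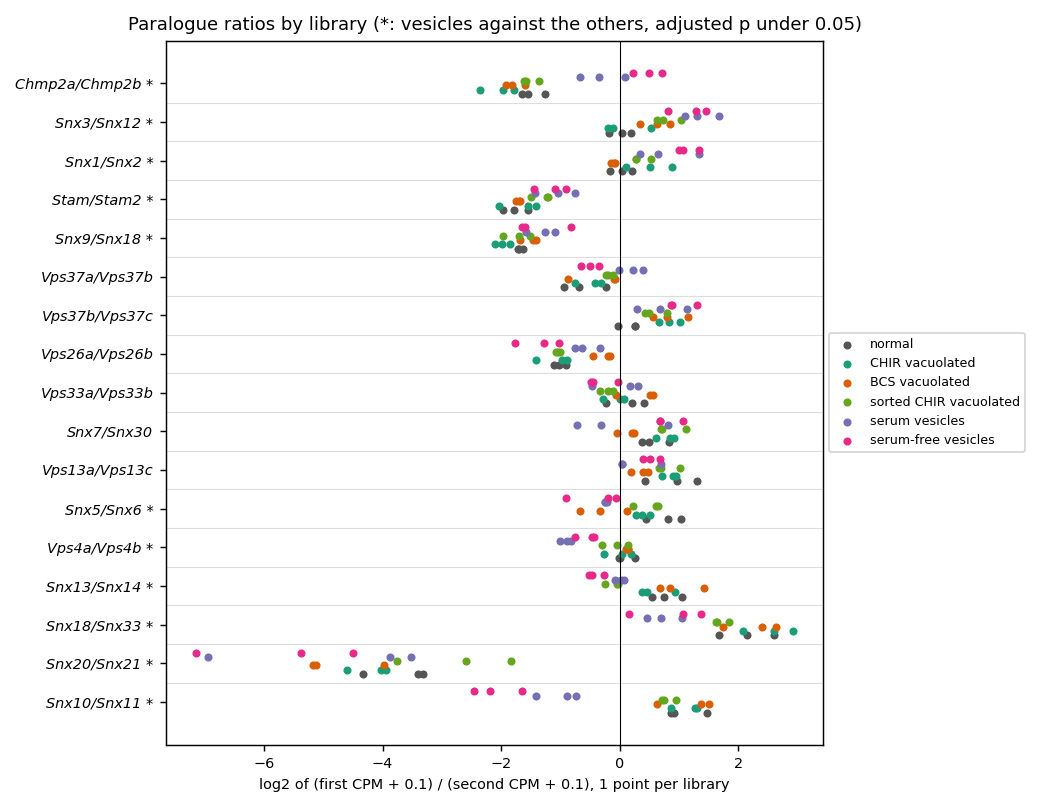
Log2 ratio of the 2 genes of each pair (horizontal axis, 0.1 CPM added to both) in each of the 18 libraries, coloured by group; an asterisk marks an exact adjusted p under 0.05 between vesicles and the other libraries. Vesicle points lie apart from all others for Snx10/Snx11, Chmp2a/Chmp2b, Snx18/Snx33 and Vps4a/Vps4b.

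Cultures were next compared with each other. After the sort, 7 of the 76 genes differed from unsorted CHIR99021-vacuolated cells (4 higher, 3 lower), or 9.21%, beside 11.7% of all tested genes (6.69% higher, 5.05% lower). Vps72 was higher (1.03 ± 0.19, adjusted p = 0.000595), and this was the 1 call that passed in all settings. Vac14 (0.86 ± 0.22, adjusted p = 0.0133) was lost without CHIR99021-vacuolated replicate 1 or 2 or sorted replicate 2 (adjusted p from 0.0673 to 0.0924). Chmp1a (-0.47 ± 0.13, adjusted p = 0.0187) was lost without CHIR99021-vacuolated replicate 3 or sorted replicate 2 or 3 (adjusted p from 0.0542 to 0.119). Leaving out any 1 of the unsorted libraries or sorted replicate 1 gave 3 calls, and the count was 2 without sorted replicate 2 or 3. Over all genes these fits gave 690 to 954 calls, against 1350 with every library.

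CHIR99021- and BCS-vacuolated cells differed in 10 of 76 (2 higher and 8 lower with CHIR99021), or 13.2%, beside 13.2% of all (5.83% higher, 7.4% lower). Snx8 was lower with CHIR99021 (-0.77 ± 0.18, adjusted p = 0.00599) in every setting. Hgs (-0.85 ± 0.21, adjusted p = 0.00841) was lost without CHIR99021-vacuolated replicate 1 or 2 or BCS-vacuolated replicate 2 (adjusted p from 0.0506 to 0.0562), and Vps13c (-0.60 ± 0.15, adjusted p = 0.00969) was lost without CHIR99021-vacuolated replicate 2 or BCS-vacuolated replicate 1 (adjusted p from 0.0614 to 0.0630). Vps26b was higher with CHIR99021 (0.47 ± 0.12, adjusted p = 0.0120), lost without CHIR99021-vacuolated replicate 2 or BCS-vacuolated replicate 1 (adjusted p from 0.0560 to 0.0634). Leaving out CHIR99021-vacuolated replicate 1 gave 6 calls and replicate 2 gave 3. Leaving out BCS-vacuolated replicate 1 gave 4 and replicate 3 gave 6. Over all genes these fits gave 748 to 983 calls, against 1522 with every library.

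Serum vesicles differed from CHIR99021-vacuolated cells in 44 of 76 (26 higher, 18 lower), or 57.9%, beside 58% of all (30.3% higher, 27.6% lower). All 6 retromer and retriever genes passed, 5 lower and Vps35l higher. Chmp4c (2.14 ± 0.39, adjusted p = 5.43e-05), Chmp2a (1.40 ± 0.17, adjusted p = 1.50e-07) and Snx14 (1.15 ± 0.18, adjusted p = 8.87e-06) rose, and the furthest falls were in Snx10 (-1.31 ± 0.27, adjusted p = 0.000214), Snx8 (-1.01 ± 0.20, adjusted p = 0.000131) and Vps26b (-0.92 ± 0.13, adjusted p = 1.31e-06). Within this comparison the call on Vps26a (-0.39 ± 0.17, adjusted p = 0.0454) was lost without CHIR99021-vacuolated replicate 1 or 2 or serum-vesicle replicate 1 or 3, or with DESeq2, with RLE factors, with no filter on low counts or with the 2 groups fitted alone (adjusted p from 0.0518 to 0.234), and that on Vps35 without CHIR99021-vacuolated replicate 2 (adjusted p = 0.0511).

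The 2 kinds of vesicles differed in 16 of 76 (8 higher and 8 lower without serum), or 21.1%, beside 24.4% of all (12.9% higher, 11.5% lower). Vps45 (0.80 ± 0.20, adjusted p = 0.00528), Vps72 (0.79 ± 0.18, adjusted p = 0.00276) and Vps4a (0.64 ± 0.12, adjusted p = 0.000599) were higher without serum in every setting. Lower without serum were Vps26a (-0.58 ± 0.17, adjusted p = 0.0158, lost without serum-vesicle replicate 2 or serum-free-vesicle replicate 3, or with the 2 groups fitted alone, adjusted p from 0.0815 to 0.0831) and Vps26c (-0.46 ± 0.15, adjusted p = 0.0251, lost without serum-vesicle replicate 1 or serum-free-vesicle replicate 2 or 3, or with no filter on low counts or with the 2 groups fitted alone, adjusted p from 0.0658 to 0.0954). Of the PIKfyve complex, Fig4 (-0.90 ± 0.31, adjusted p = 0.0345, lost without serum-vesicle replicate 1 or 3 or serum-free-vesicle replicate 1 or 3, or with no filter on low counts or with the 2 groups fitted alone, adjusted p from 0.0671 to 0.119) and Pikfyve (-0.32 ± 0.11, adjusted p = 0.0295, lost without serum-vesicle replicate 1 or 3 or serum-free-vesicle replicate 1 or 3, or with no filter on low counts or with the 2 groups fitted alone, adjusted p from 0.0557 to 0.209) were lower as well. The GARP and EARP subunits Vps52 (-1.15 ± 0.32, adjusted p = 0.0102) and Vps53 (-0.76 ± 0.25, adjusted p = 0.0296) were lower too, lost without serum-vesicle replicate 3 or serum-free-vesicle replicate 3, or with the 2 groups fitted alone (adjusted p from 0.0659 to 0.136) and without serum-vesicle replicate 1 or 3 or serum-free-vesicle replicate 3, or with no filter on low counts or with the 2 groups fitted alone (adjusted p from 0.0529 to 0.134). The count was 10 without serum-vesicle replicate 1, 8 without replicate 3 and 7 without serum-free-vesicle replicate 3. Over all genes these fits gave 2388, 1725 and 1909 calls, against 2806 with every library.

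Partners of this machinery outside the set were read from 6 lists chosen by function. Of 12 further ESCRT factors 6 were higher and 4 lower in serum vesicles, and 4 higher and 3 lower in serum-free vesicles. That is 83.3% and 58.3% called, beside 60.4% and 57.7% of all tested genes. Ist1, an ESCRT-III-like protein that regulates VPS4, rose by 1.73 ± 0.15, adjusted p = 8.86e-10 and 1.76 ± 0.15, adjusted p = 6.39e-10 in the 2 media and by 1.19 ± 0.15, adjusted p = 4.23e-06 after the sort. The ESCRT-I subunits Mvb12b and Mvb12a went opposite ways in serum vesicles (2.24 ± 0.24, adjusted p = 1.98e-08 and -1.16 ± 0.17, adjusted p = 1.61e-06), and Vta1, an activator of VPS4, fell there (-0.69 ± 0.13, adjusted p = 7.53e-05). All 6 tested sorting receptors, the cargo of these pathways, were higher in serum vesicles, against 3 higher and 1 lower in serum-free vesicles (median log2 fold change 1.73 and 1.58, beside 0.06 and 0.04 over all tested genes). Lrp2 (megalin), the main scavenger receptor of absorptive epithelia, rose by 3.67 ± 0.49, adjusted p = 2.66e-05 in serum vesicles and 2.64 ± 0.47, adjusted p = 0.000375 in serum-free vesicles.

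Of 13 early endosome tethers and FYVE proteins 8 were higher and 0 lower in serum vesicles, and 5 higher and 2 lower in serum-free vesicles. The shares called, 61.5% and 53.8%, lay close to the 60.4% and 57.7% of all tested genes. Rabgef1, an activator of Rab5, rose by 1.79 ± 0.16, adjusted p = 6.30e-10 and 1.43 ± 0.16, adjusted p = 3.07e-08. Of 11 PI3-kinase and myotubularin genes 5 were higher and 1 lower with serum, and 3 higher and 1 lower without (54.5% and 36.4% called). The PI3P phosphatase Mtmr3 rose (1.38 ± 0.13, adjusted p = 2.89e-09 and 1.33 ± 0.13, adjusted p = 5.44e-09) and Mtmr2 fell (-0.42 ± 0.13, adjusted p = 0.00587 and -0.46 ± 0.12, adjusted p = 0.00301). Of 16 tested WASH and CCC genes, the partners of retromer and retriever, 3 were higher and 4 lower with serum (43.8% called), among them Washc2c (0.63 ± 0.11, adjusted p = 2.73e-05), which binds Vps35, and Commd6 (-0.95 ± 0.16, adjusted p = 1.07e-05). Of 19 clathrin adaptor genes 4 were higher and 5 lower with serum, and 5 and 5 without (47.4% and 52.6% called). The AP-3 subunits Ap3d1 and Ap3s2 went opposite ways in all 5 groups, with 1.03 ± 0.12, adjusted p = 6.41e-08 and -1.16 ± 0.18, adjusted p = 7.58e-06 in serum vesicles. With CHIR99021 alone both calls were lost, that on Ap3d1 without normal replicate 1, 2 or 3 or CHIR99021-vacuolated replicate 1 or 3, or with no filter on low counts (adjusted p from 0.0785 to 0.170) and that on Ap3s2 without normal replicate 2 or CHIR99021-vacuolated replicate 1 (adjusted p from 0.0641 to 0.0723).

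Of the 76 tested genes 11 passed in none of the 9 comparisons: Chmp5, Snx2, Snx7, Snx9, Snx16, Stam, Tsg101, Vps11, Vps16, Vps25 and Vps33b. Snx30 and Vps41 passed in none with normal cells, which makes 13. Snx20 and Vps37d had too few counts to be tested. Vps37d had 32 counts with BCS and 2 in serum vesicles, beside 7 in normal cells. Snx32 had 0 counts in the normal libraries and 26 and 39 over the serum and serum-free vesicle libraries, so its level was at least 8.33-fold and 10.2-fold higher there against a floor of 3 counts over the normal group. Of the reads at Snx32, however, 79.0% lay on the opposite strand, and on unstranded counts its calls with BCS, after the sort and in serum vesicles were lost (adjusted p from 0.352 to 0.986), while that in serum-free vesicles was kept at a log2 fold change of 0.91 (adjusted p = 0.0271). At Snx21 that share was 33.2%, and its call in serum-free vesicles (0.82 ± 0.26, adjusted p = 0.00937) was lost without normal replicate 3, or with unstranded counts (adjusted p from 0.0568 to 0.0690). Snx21 was also called higher in serum vesicles (mean 12.7 CPM, beside 7.23 in normal cells). Whether that call held in every setting is not given here. The unstranded column holds 638 counts of Snx21, against 1134 on the strand used.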

How the data were processed

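The authors sequenced RNA from 18 cultures. Per the submitters' processing notes, bcl2fastq, Trimmomatic 0.38 and STAR 2.6.1 were used with genome build rn6. The deposited files give raw counts per gene in 3 columns, unstranded and for each strand, and the strand-specific column 4 was used. Rows that name no gene were left out of library sizes and tests. The members, roles, partner lists and pairs were chosen with earlier results of these data known.

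All libraries entered 1 edgeR 4.0.16 quasi-likelihood fit (R 4.3.3) with TMM factors, a minimum count of 10 and 12 residual degrees of freedom, tested on simulated data. CPM are counts divided by the TMM library size. Values after ± are SE for log2 fold changes and SD elsewhere. Alternatives were DESeq2 1.42.0, RLE factors, no filter, unstranded counts, the 2 groups alone, a replicate block, passage as a covariate and leaving out each library. Genes named in full were a fixed set and, per comparison, the 5 highest and 5 lowest calls without overlap between groups (3 in the comparisons between cultures). Those calls also had a mean log2 CPM of at least 3. Vps29, Vps35l, Snx10 and Chmp4c were given in full outside this rule. Others are examples from their role group.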

Additional observations from a re-analysis of the deposited data

Results flagged for a closer look

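Reads on the strand opposite to Vps54, a GARP subunit, numbered 41 over the serum-free vesicle libraries and 4 over the normal ones. That is 1.51 to 2.26 CPM in each serum-free library against 0.179 to 0.303 in normal cells. It stands out because these reads lie outside the strand used for the comparisons, reach at least 20 counts, and the lowest library exceeds 3 times the highest normal one. No other gene of the set met that limit in any group.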

How the results depend on the processing

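Of all single values recomputed, 9638 kept their side of the threshold, 491 calls were lost, 115 were gained and 1 reversed: Snx32 in BCS-vacuolated against normal cells, at -0.015 on unstranded counts. A change of direction was counted as reversed only where a call was involved, so the 9638 may include uncalled values that changed sign. With the 2 groups fitted alone, 9 genes were called for CHIR99021 against normal cells, 12 for sorted against unsorted cells and 3 between the vesicle media. Calls over all genes moved the same way, from 876 to 1856, from 1350 to 2576 and from 2806 to 1223. Unstranded counts gave 1 for CHIR99021, beside 871 of all genes. The cause was not tested. Leaving out 1 library gave 0 to 2 calls with CHIR99021, 8 to 20 with BCS, 10 to 15 after the sort, and in vesicles 41 to 49 with serum and 41 to 44 without. Over all genes the calls were 504 to 638, 1275 to 2606, 1982 to 2471, 6412 to 6916 and 6074 to 6387, in that order. Leaving out 1 library gave 2 to 3 for sorted against unsorted cells, 3 to 10 for CHIR99021 against BCS, 31 to 42 for serum vesicles against CHIR99021 and 7 to 20 between the media. Over all genes these were 690 to 954, 748 to 1947, 6004 to 6598 and 1725 to 3004. Of the paralogue ratios 10 to 12 passed, and 11 with 0.5 CPM added or on unstranded counts.

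Replicate numbers recur across groups but did not pair the samples: deviations of same-numbered libraries had a median correlation of 0.004, and 1 of 45 pairs exceeded 0.1. With the replicate number as a block the counts were 2, 16, 19, 49 and 45 against normal cells, and 7, 10, 44 and 14 in the other comparisons. Over all genes they were 832, 2281, 2860, 6889 and 6555, and 1232, 1451, 6574 and 2568. Of the 18 libraries 5 correlated best with their own number.

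RLE and DESeq2 scaling moved the median of all genes by at most 0.012 in size. Depth limits Chmp4c, Snx20, Snx32, Vps25, Vps37d and Vps9d1, which had few counts in normal cells, and all values of serum-vesicle replicate 3, the shallowest library.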
